A study of Camelina sativa with 12 samples.

Results

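The 100 genes described here had less RNA in shoots of both *acdS* lines of *Camelina sativa* than in shoots of DH55, the non-transgenic line they were made from. Membership was set by the measured values. Counts were divided by the library total to give counts per 1000000 (CPM), and a gene entered when its mean was 2 CPM or more in both DH55 groups and each of the 6 *acdS* libraries lay below each of the 6 DH55 libraries. Of the 42999 genes with that abundance, 183 (0.426%) had this order and 116 (0.27%) had the opposite one. The 183 were ranked by the log2 ratio of the smaller DH55 group mean to the larger *acdS* group mean, with 0.5 CPM added to each, and the first 100 were kept, out of 89418 genes in the table. Differences between the *acdS* lines and DH55 therefore chose these genes. They are given below as a description, without a test.

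All plants were DH55 or derived from it, were 28 days old and had received NaCl (192 mM, 15 dS m-1) for 21 days. In the *rolD::acdS* group the *acdS* gene of *Pseudomonas* sp. UW4 was driven by the *rolD* promoter of *Agrobacterium rhizogenes*, which is mainly active in roots, and in the *35S::acdS* group by the constitutive *CaMV 35S* promoter. The study reports that *rolD* also drove *acdS* in vegetative tissue. There it found far more *acdS* expression under *35S* than under *rolD*. The 8R6 group was DH55 in soil inoculated with the bacterium *P. migulae* 8R6, which makes ACC deaminase itself, and the control was DH55 in soil given buffer alone, as the soil of the transgenic plants was. Each group had 3 replicates, so that 12 libraries of polyA RNA from whole shoots were compared, all from salt-treated plants. The study describes its lines as homozygous with a single insert, and whether the 3 libraries of an *acdS* group came from more than 1 line is not given in the sources used here, so an effect of *acdS* and an effect of the line that carries it cannot be told apart. In whole shoots, fewer cells of a type and less RNA per cell cannot be told apart either.

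ACC deaminase degrades 1-aminocyclopropane-1-carboxylate (ACC), the precursor of the hormone ethylene, and so lowers the amount of ethylene a plant can make. Ethylene signalling interacts with that of salicylate, the hormone of defence against biotrophic pathogens. It also bears on the enzymes that loosen and rebuild the cell wall during growth. *C. sativa* is a hexaploid relative of *Arabidopsis thaliana*, so that most *A. thaliana* genes have up to 3 copies, called homeologues, in its sub-genomes. The roles given below are those known in *A. thaliana*.

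Library totals were 10520627 to 23267552 counts in *rolD::acdS*, 11099030 to 22995441 in *35S::acdS*, 15392642 to 23118510 in 8R6 and 15004403 to 23587748 in the control. Replicates 2 and 3 of *rolD::acdS* and replicates 1 and 3 of *35S::acdS* were shallower than every DH55 library, and the part of depth in the results was not tested. The 4 photosystem genes used as a check of the tissue (Csa08g050560, Csa14g037480, Csa06g036870 and Csa01g001010) had counts in all 12 libraries. Csa01g001010 was close to the limit of detection in *35S::acdS* replicate 1, at 0.150 CPM, where 3 counts are 0.225 CPM. The summed level of the 4 genes was 56.0 to 75 CPM in *rolD::acdS*, 41.7 to 57.5 CPM in *35S::acdS*, 113.6 to 135.8 CPM in 8R6 and 38.2 to 53.5 CPM in the control. The study names these 4 genes as less down-regulated or induced with the bacterium in these same libraries. Their high level in 8R6 is therefore not independent of how they were picked. The sum did not separate the *acdS* lines from the control in the way the 100 genes did.

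Most differences were below 2-fold. On the scale log2(CPM + 0.5), the mean of the 6 *acdS* libraries over the mean of the 6 DH55 libraries lay between -2.38 and -0.35 for the 100 genes, with a median of -0.65. Without the added 0.5 CPM, the DH55 mean was 1.29 to 6.37 times the *acdS* mean, more than 1.5 times for 74 genes, more than 2 times for 22 and more than 3 times for 7. The level was mostly low: the median gene had a mean of 5.33 CPM in the *acdS* libraries and 9.32 CPM in the DH55 libraries, and 9 genes exceeded 50 CPM in DH55. Summed over the 100 genes, the level was 1249, 1103 and 984 CPM in the *rolD::acdS* libraries, 1019, 1289 and 1383 CPM in *35S::acdS*, 1774, 2256 and 2209 CPM in 8R6, and 1782, 1893 and 1962 CPM in the control.

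**Figure D1:**
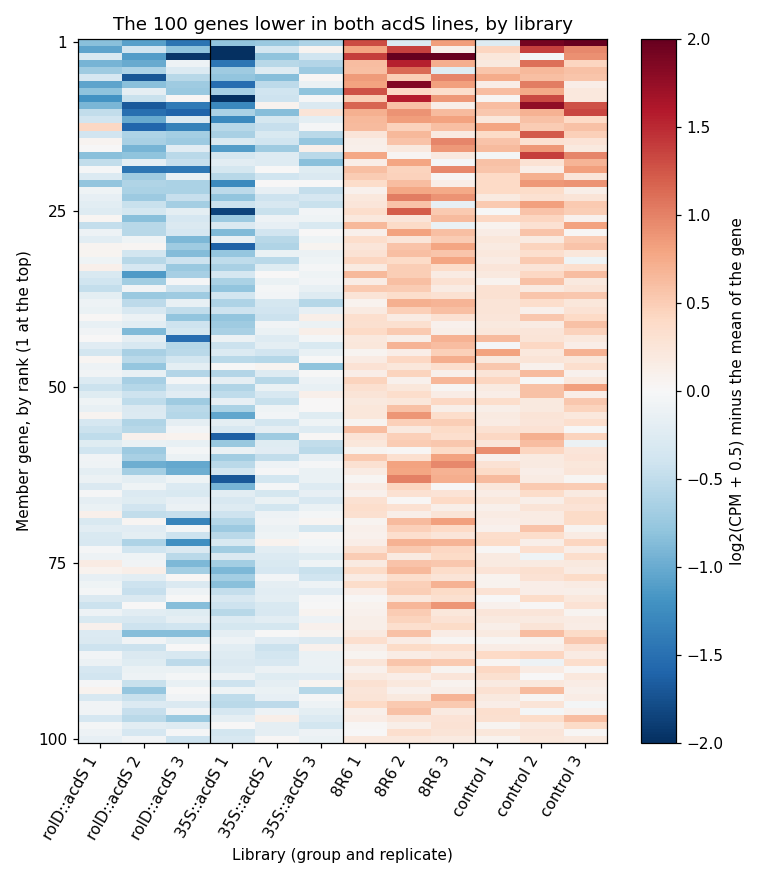
Level of each of the 100 genes (rows, by rank) in each of the 12 libraries (columns, by group and replicate), as log2(CPM + 0.5) minus the mean of the gene over the libraries. Blue is below and red above the mean of the gene. The rule makes the 6 *acdS* columns lower than the 6 DH55 columns in every row, and replicate 1 of *35S::acdS* has the lowest *acdS* value for 37 of the 100 genes.

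The libraries that set membership lay close together. The lowest DH55 library was 1.00 to 1.47 times the highest *acdS* library, with a median of 1.07, and in 43 of the 100 genes it exceeded that library by less than 5%. The widest separation was that of Csa18g039560, a xyloglucan endotransglucosylase/hydrolase gene, and Csa07g046140, an isochorismate synthase gene, at 1.47 and 1.46 times. With libraries scaled by TMM factors (0.963 to 1.04) 87 of the 100 genes kept all 6 *acdS* libraries below all 6 DH55 libraries and 13 did not. When single libraries were left out and the ranking repeated, 39 to 86 of the 100 genes stayed in the first 100, the fewest without 8R6 replicate 3, and 30 genes stayed each time. Beside the edge of the list, the genes ranked 98, 99 and 100 (Csa17g024470, Csa08g057220 and Csa01g028160) had rule values of 0.32, 0.31 and 0.30 on the log2 scale. The 3 genes just outside (Csa11g041380, Csa19g014370 and Csa20g022050) all had 0.30, so nothing in the values sets rank 100 apart.

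**Figure D2:**
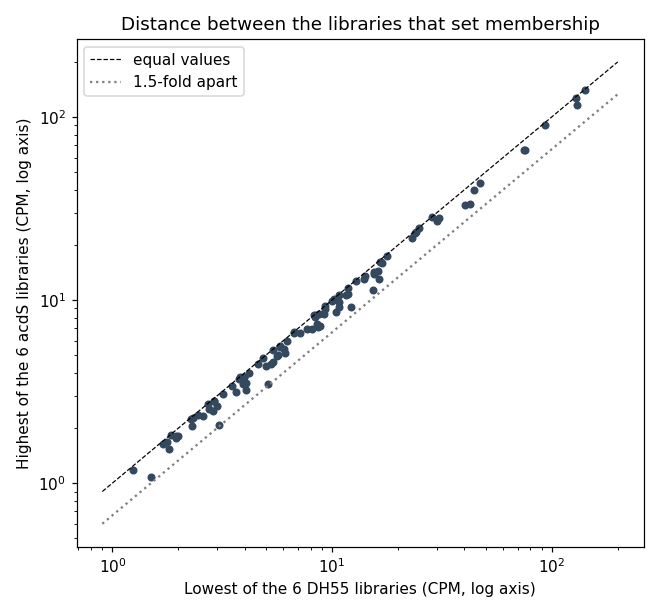
Highest of the 6 *acdS* libraries (vertical axis) against the lowest of the 6 DH55 libraries (horizontal axis) for each of the 100 genes, in CPM on log axes, with lines for equal values and for values 1.5-fold apart. All points lie between the lines, and 43 genes lie within 5% of equality.

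Of the 100 genes, 29 carry an annotation in the study's lists of changed genes and 71 do not. Because those lists name genes that the study found changed in these same libraries, the annotated share is not independent of the differences described here. The 29 comprised 9 genes of salicylate signalling and immunity, 5 of the cell wall, 5 of sugar and organic acid metabolism, 1 sulphate transporter, 4 other enzymes and 5 other genes. This grouping was made after the values were seen.

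Immunity genes formed the largest group in this grouping made afterwards, and several of them act in 1 pathway. The share of such genes over all genes was not computed. By the study's own functional categories, biotic stress held 1 member among 20 genes. The cell wall category held 5 among 60 and transport 4 among 43. Isochorismate synthase makes the precursor of most pathogen-induced salicylate, and both of its annotated homeologues were members. Csa07g046140 had 3.27, 2.7 and 2.57 CPM in the *rolD::acdS* libraries and 2.63, 3.48 and 2.88 CPM in *35S::acdS*, against 5.32, 7.21 and 5.09 CPM in 8R6 and 5.93, 11.1 and 6.32 CPM in the control. The 6 *acdS* libraries were nearly level, whereas control replicate 2 stood above the other DH55 libraries. Csa09g079290 had 4.0, 3.35 and 2.76 CPM in *rolD::acdS* and 3.38, 3.7 and 3.33 CPM in *35S::acdS*, against 5.71, 7.28 and 4.19 CPM in 8R6 and 7.0, 8.72 and 7.04 CPM in the control, and here 8R6 replicate 3 was only 1.05 times the highest *acdS* library. The next enzyme of the route in *A. thaliana*, AT5G13320 (PBS3), joins isochorismate to glutamate, and its member homeologue Csa08g005200 is listed as a GH3 family gene. It had 9.89, 6.23 and 10.6 CPM in *rolD::acdS* and 5.11, 10.1 and 11.4 CPM in *35S::acdS*, against 20.8, 23.8 and 23.2 CPM in 8R6 and 15.3, 20 and 17.5 CPM in the control. All 3 libraries of 8R6 were above the 3 of the control for this gene.

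Regulators of the same pathway were members too. Csa16g037660 is listed as similar to SAR DEFICIENT 1, a transcription factor of the calmodulin-binding protein family that activates isochorismate synthase. It was close to the limit of detection in *rolD::acdS*, with 8, 0 and 1 counts (0.344, 0 and 0.0951 CPM). It had 2, 27 and 9 counts in *35S::acdS* (0.15, 1.17 and 0.811 CPM), 3.07, 1.88 and 1.24 CPM in 8R6 and 1.93, 4.93 and 3.35 CPM in the control. The 0 in *rolD::acdS* replicate 2 allows up to 3 counts (0.279 CPM), and this limit covers counting error only. WRKY70 (Csa04g042830), a transcription factor that promotes salicylate responses and restrains those to jasmonate, had 3.52, 4.19 and 4.56 CPM in *rolD::acdS* and 2.4, 5.31 and 7.12 CPM in *35S::acdS*, against 14, 29.6 and 14.2 CPM in 8R6 and 8.66, 16.4 and 8.61 CPM in the control. 8R6 replicate 2 was the highest, and the *35S::acdS* libraries spanned a wider range than those of *rolD::acdS*.

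Sigma factor binding proteins carry a VQ motif, bind WRKY factors and take part in defence. Csa04g043100 (sigma factor binding protein 1, SIB1) had 1.59, 1.49 and 3.23 CPM in *rolD::acdS* and 0.977, 2.22 and 2.16 CPM in *35S::acdS*, against 5.67, 11.2 and 6.14 CPM in 8R6 and 4.07, 8.09 and 4.92 CPM in the control. Csa06g047060 and Csa05g011480, both homeologues of AT2G41180, a relative of SIB1, had log2 ratios of *acdS* to DH55 of -0.83 and -0.72, against -1.56 for Csa04g043100. The most abundant immunity gene was Csa04g024330, which encodes a receptor of the TIR-NBS-LRR class similar to RPP1, a protein that recognises downy mildew. Its level was 53.6, 48.5 and 57.9 CPM in *rolD::acdS* and 47.8, 66.4 and 65.6 CPM in *35S::acdS*, against 90.8, 85.3 and 74.5 CPM in 8R6 and 82.4, 109 and 128 CPM in the control.

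**Figure D3:**
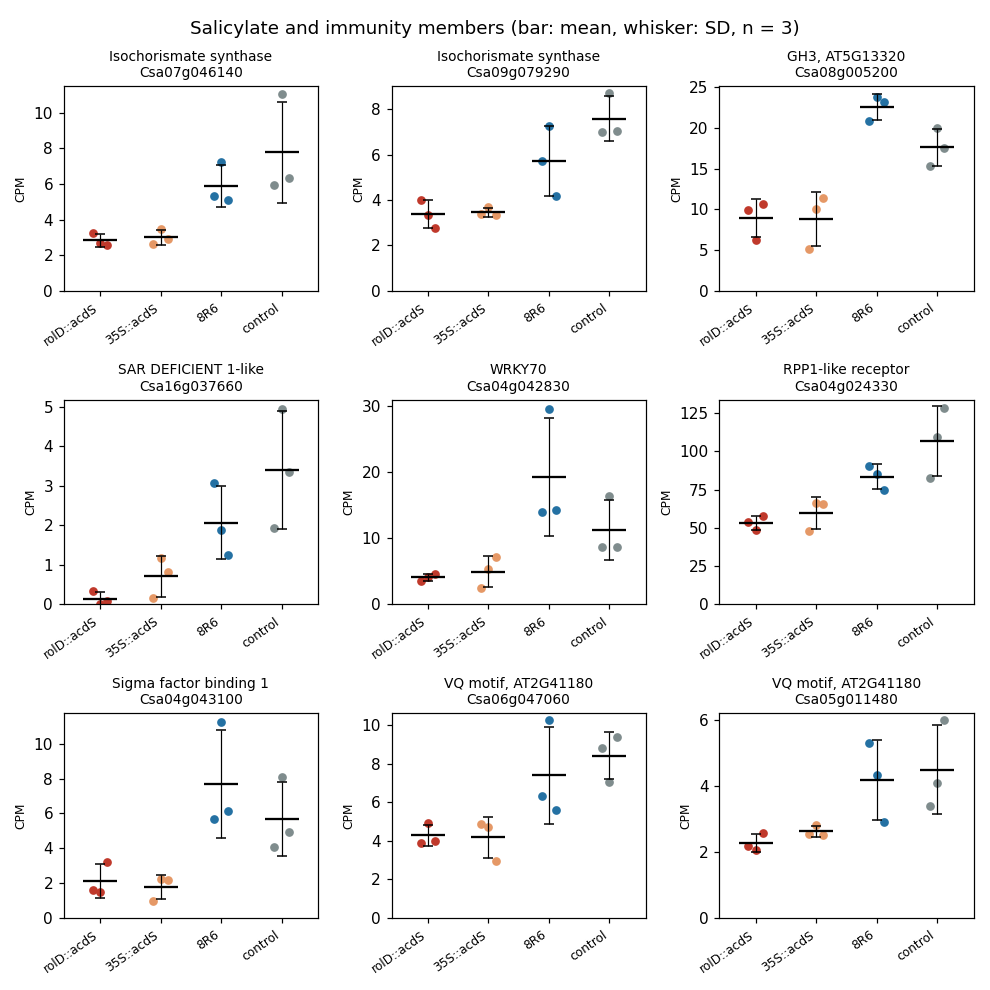
Level (CPM, linear axis from 0) of the 9 salicylate and immunity genes in the 12 libraries, by group from *rolD::acdS* at the left to the control at the right. Points are libraries, bars are group means and whiskers are SDs (n = 3). WRKY70, SIB1 and the GH3 gene have higher means in 8R6 than in the control, and both isochorismate synthase genes have lower ones.

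Other genes of salicylate signalling outside the list, picked after their values were seen, overlapped between the groups. Of 3 PR1, 3 PR5, 2 EDS5 genes and WRKY51, all 9 had a lower mean in the *acdS* libraries (log2 ratios of -2.21 to -0.80) but 0 had all 6 *acdS* libraries below all 6 DH55 libraries. The study names all 9 as less induced or down-regulated in an *acdS* line in these same libraries, so their direction is not independent. A lower mean was also found for 533 of 736 annotated genes and for 20397 of all 42999 genes with at least 2 CPM. The EDS5 gene Csa10g001780 and WRKY51 (Csa02g073920) did not reach 2 CPM in both DH55 groups, so the rule could not take them. PR1 (Csa15g064830), the usual marker of salicylate responses, had a lowest, median and highest level of 0.00, 1.90 and 8.74 CPM in the *acdS* libraries, against 0.809, 9.48 and 34.8 CPM in DH55. Its lowest DH55 library thus lay inside the range of the *acdS* libraries.

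Cell wall members included xyloglucan endotransglucosylase/hydrolases (XTH), which cut and rejoin the hemicellulose that tethers cellulose fibres, and a structural protein. XTH24 (Csa10g012230) had 19.4, 9.4 and 8.74 CPM in *rolD::acdS* and 17.7, 15.2 and 33.2 CPM in *35S::acdS*, against 45.6, 52.2 and 43.3 CPM in 8R6 and 40.4, 45.3 and 70.4 CPM in the control. XTH6 (Csa18g039560) was scarcer, with 1.5, 0.279 and 1.24 CPM in *rolD::acdS*, 0.977, 0.913 and 2.07 CPM in *35S::acdS*, 4.07, 3.05 and 4.52 CPM in 8R6 and 3.73, 3.35 and 3.22 CPM in the control, and its lowest value rested on 3 counts. The nearest *acdS* and DH55 libraries were 1.22 times apart for XTH24 and 1.47 times for XTH6. The beta-xylosidase 2 gene Csa14g002670, whose product removes xylose from wall polymers, had 10.7, 3.63 and 3.71 CPM in *rolD::acdS* and 8.34, 10.8 and 9.1 CPM in *35S::acdS*, against 16.7, 14.9 and 21.5 CPM in 8R6 and 16.1, 11.9 and 19.5 CPM in the control. The FRA8 homologue Csa20g037860, a glucuronosyltransferase of xylan synthesis, and Csa19g046190, an arabinogalactan protein gene (AT2G14890), had log2 ratios of *acdS* to DH55 of -0.81 and -0.78. The arabinogalactan protein gene was among the most abundant members, at 68.9, 56 and 36.4 CPM in *rolD::acdS* and 69.4, 90.1 and 83.8 CPM in *35S::acdS*, against 94.9, 140.3 and 139 CPM in 8R6 and 113, 93.4 and 116 CPM in the control.

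Genes of sugar and organic acid metabolism included the gene with the largest log2 ratio of all, with 0.5 CPM added. FUMARASE 2 (Csa02g041670), the cytosolic fumarase that makes the fumarate stored in leaves by day, had 7.22, 3.91 and 2.0 CPM in *rolD::acdS* and 1.43, 4.96 and 6.76 CPM in *35S::acdS*, against 24.6, 44.2 and 43.2 CPM in 8R6 and 10.7, 8.78 and 17.6 CPM in the control. Its DH55 groups did not overlap each other, the 8R6 libraries being higher, and its log2 ratio of *acdS* to DH55 was -2.38. All 3 homeologues of sugar transporter 1 (STP1), which brings glucose and other hexoses into cells with protons, were members. Csa14g014020 had 11.8, 7.91 and 8.08 CPM in *rolD::acdS* and 10.4, 13 and 11.3 CPM in *35S::acdS*, against 16.4, 17.5 and 17 CPM in 8R6 and 17, 20.2 and 20 CPM in the control. Csa17g015290 had 10.3, 6.7 and 6.75 CPM in *rolD::acdS* and 11, 12.5 and 13.1 CPM in *35S::acdS*, against 14.3, 19.2 and 14 CPM in 8R6 and 14.3, 19.5 and 16.4 CPM in the control. In Csa17g015290 the *rolD::acdS* libraries also lay below those of *35S::acdS*. Csa03g014900 had 12.5, 10.9 and 9.32 CPM in *rolD::acdS* and 14.1, 17.4 and 13.1 CPM in *35S::acdS*, against 17.7, 19 and 19.4 CPM in 8R6 and 20.1, 20.7 and 24.7 CPM in the control, an order of the groups without any overlap between neighbours. With TMM factors its highest *acdS* library passed its lowest DH55 library, at 17.8 and 17.5 CPM. Csa05g090010, listed as fructokinase-4, an enzyme that phosphorylates fructose, had 8.94, 1.86 and 2.28 CPM in *rolD::acdS* and 4.36, 4.65 and 6.49 CPM in *35S::acdS*, against 10.5, 9.29 and 10.3 CPM in 8R6 and 11.8, 9.6 and 10.1 CPM in the control, with *rolD::acdS* replicate 1 near the DH55 libraries.

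**Figure D4:**
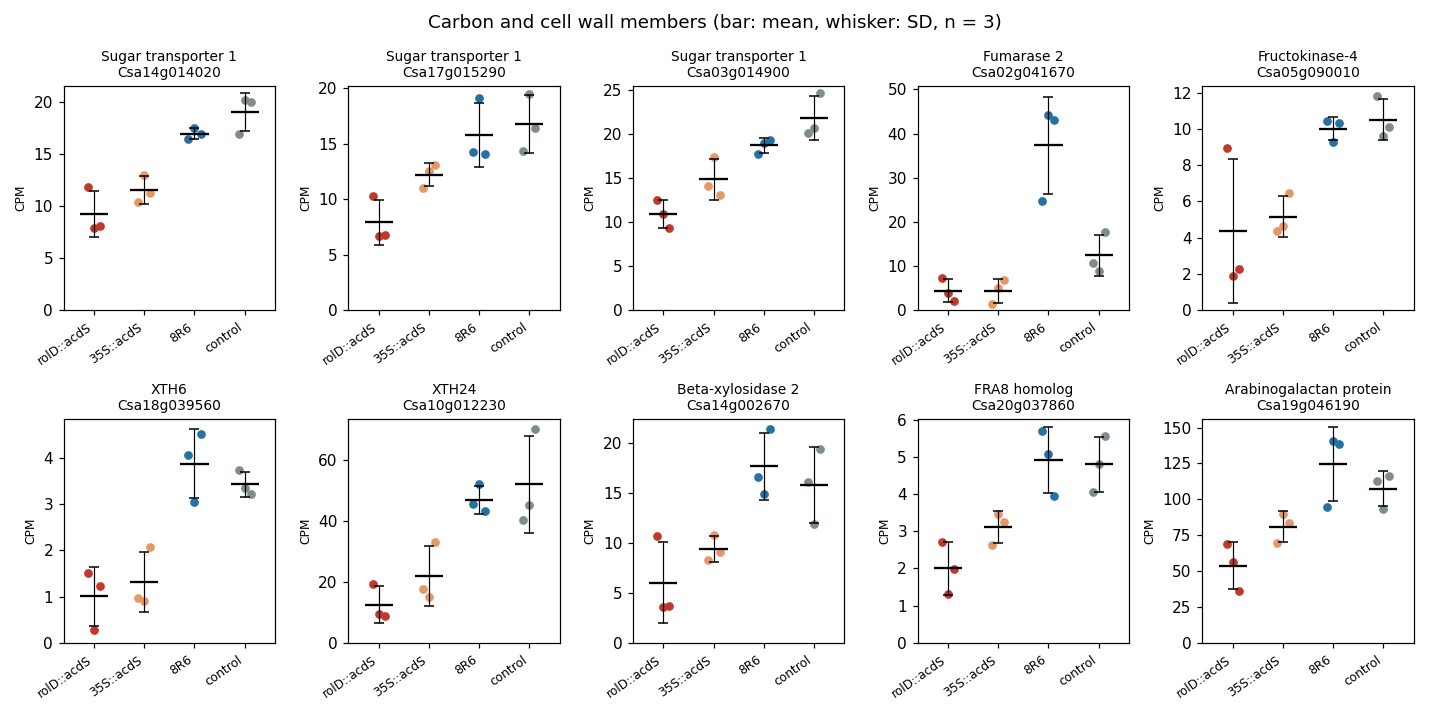
Level (CPM, linear axis from 0) of 5 sugar and organic acid genes (top) and 5 cell wall genes (bottom) in the 12 libraries, by group from *rolD::acdS* at the left to the control at the right. Points are libraries, bars are group means and whiskers are SDs (n = 3). Replicate 1 of *rolD::acdS* is the highest of its group for all 10 genes, and all 10 have both *acdS* groups below both DH55 groups.

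The remaining annotated members were of mixed function. The gene ranked first, Csa06g011400, encodes an acyltransferase of the HXXXD family, enzymes that acylate secondary metabolites. It had 0.86, 0.651 and 0.38 CPM in *rolD::acdS* and 0.902, 0.957 and 1.08 CPM in *35S::acdS*, against 5.49, 1.49 and 3.86 CPM in 8R6 and 1.53, 8.66 and 9.37 CPM in the control, with a wide spread among the DH55 libraries. A cytochrome P450 gene 3 identifiers away, Csa06g011430, had 2.92, 2.98 and 3.71 CPM in *rolD::acdS* and 4.28, 4.61 and 3.69 CPM in *35S::acdS*, against 9.86, 5.78 and 6.47 CPM in 8R6 and 5.4, 15.4 and 11.4 CPM in the control. Control replicates 2 and 3 and 8R6 replicate 1 were the highest libraries for both genes. The lipase gene Csa13g028770 had a lowest, median and highest level of 0.0751, 1.64 and 2.79 CPM in the *acdS* libraries, against 2.9, 5.35 and 7.73 CPM in DH55. Csa16g055860, listed as an indole glucosinolate O-methyltransferase, had 1.17, 1.25 and 1.83 CPM in the *acdS* libraries, against 1.86, 3.7 and 5.59 CPM in DH55, in the same order. Csa09g084780, the homeologue of the sulphate transporter AT1G78000, which in *A. thaliana* takes up sulphate in roots, had 0.977, 3.43 and 4.37 CPM against 5.02, 5.66 and 7.01 CPM. All of these genes were low, and the lowest *acdS* value of the lipase gene was a single count.

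A gene for ribosomal protein S27 of the small subunit (Csa02g032160) had one of the clearest separations, with 5.8, 9.21 and 6.08 CPM in *rolD::acdS* and 6.46, 7.87 and 5.86 CPM in *35S::acdS*, against 26.3, 14.2 and 13.6 CPM in 8R6 and 16.4, 18.2 and 12.3 CPM in the control. Csa07g049730, which encodes an ankyrin repeat protein, had 11.3, 18 and 28 CPM as the lowest, median and highest level in the *acdS* libraries, against 30.7, 40 and 52.1 CPM in DH55. Csa09g075880, a protease inhibitor of the Kunitz family, had 12, 19.4 and 28.4 CPM against 28.5, 35.9 and 49 CPM, and its highest *acdS* library almost met its lowest DH55 library. Csa16g020420, a gene of unknown function (DUF3049), and the CCCH zinc finger gene Csa16g047520 had log2 ratios of *acdS* to DH55 of -0.80 and -0.70.

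Among the 71 members without annotation, 10 were in the first 30 ranks: Csa09g068700, Csa15g006370, Csa16g038610, Csa08g063540, Csa16g029100, Csa17g072960, Csa06g016890, Csa09g071970, Csa02g051300 and Csa16g014910. Csa09g068700, ranked highest of these, had 4.04, 7.16 and 10.2 CPM in *rolD::acdS* and 1.43, 7.35 and 9.73 CPM in *35S::acdS*, against 14.2, 30.5 and 18.6 CPM in 8R6 and 10.2, 25.7 and 11.5 CPM in the control. Its *rolD::acdS* replicate 3 and control replicate 1 were almost equal, and with TMM factors they changed places, at 10.6 and 10.4 CPM. Csa16g029100, more abundant, had 33.4, 22.5 and 27.3 CPM in *rolD::acdS* and 21.5, 28.1 and 29.7 CPM in *35S::acdS*, against 43.6, 76.9 and 70.8 CPM in 8R6 and 42.5, 46.5 and 44.8 CPM in the control, so that its lowest DH55 library was 1.27 times its highest *acdS* library. The 8 others had log2 ratios of *acdS* to DH55 between -1.0 and -0.65. The 3 most abundant of all members were also without annotation and were chosen after their values were seen. Csa15g071050 had 59.8, 97.1 and 116 CPM as the lowest, median and highest level in the *acdS* libraries, against 130.2, 148 and 205 CPM in DH55. Csa17g039130 had 54.5, 121 and 140.0 CPM against 142, 166 and 242 CPM, and Csa14g035900 had 70, 99.2 and 127 CPM against 129, 145 and 235 CPM. For the last of these genes the nearest libraries of the *acdS* lines and DH55 were 1.01 times apart.

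The *acdS* libraries did not lie equally low. Replicate 1 of *35S::acdS* had the lowest *acdS* value for 37 of the 100 genes, against 25% of the 42899 other genes with at least 2 CPM, and replicate 2 of *rolD::acdS* for 25, against 17.2%. Replicate 3 of *rolD::acdS* was the lowest for 23 genes, no more often than among the other genes (26.2%). Replicate 1 of *rolD::acdS* was the lowest for 4 genes, against 8.12%, and the highest *acdS* library for 26, against 10.2%. In DH55, 8R6 replicate 2 had the highest value for 33 genes, against 14.4% of the other genes. These libraries had 13309192 counts (*35S::acdS* replicate 1), 23267552 (*rolD::acdS* replicate 1) and 15392642 (8R6 replicate 2).

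The annotated groups differed in how low the single *rolD::acdS* libraries were. As means over genes of log2(CPM + 0.5) minus the mean of each gene, the cell wall genes were at -0.30, -1.28 and -1.10 in the *rolD::acdS* libraries and at -0.48, -0.32 and -0.02 in *35S::acdS*. They were at 0.59, 0.61 and 0.69 in 8R6 and at 0.48, 0.39 and 0.75 in the control. Sugar and organic acid genes had the same low replicates 2 and 3 in *rolD::acdS*, at -0.14, -0.97 and -1.12, and were at -0.72, -0.24 and -0.18 in *35S::acdS*, where replicate 1 was the lowest. Immunity genes were more even in *rolD::acdS*, at -0.59, -0.77 and -0.55, and were likewise lowest in replicate 1 of *35S::acdS*, at -0.86, -0.28 and -0.38 in the libraries of that group. The 71 members without annotation were at -0.15, -0.36 and -0.38 in *rolD::acdS*, at -0.55, -0.26 and -0.15 in *35S::acdS*, at 0.23, 0.46 and 0.43 in 8R6, and at 0.22, 0.29 and 0.23 in the control. Thus 1 library of *rolD::acdS* lay near the mean for the cell wall and sugar genes while the other two were far below it.

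**Figure D5:**
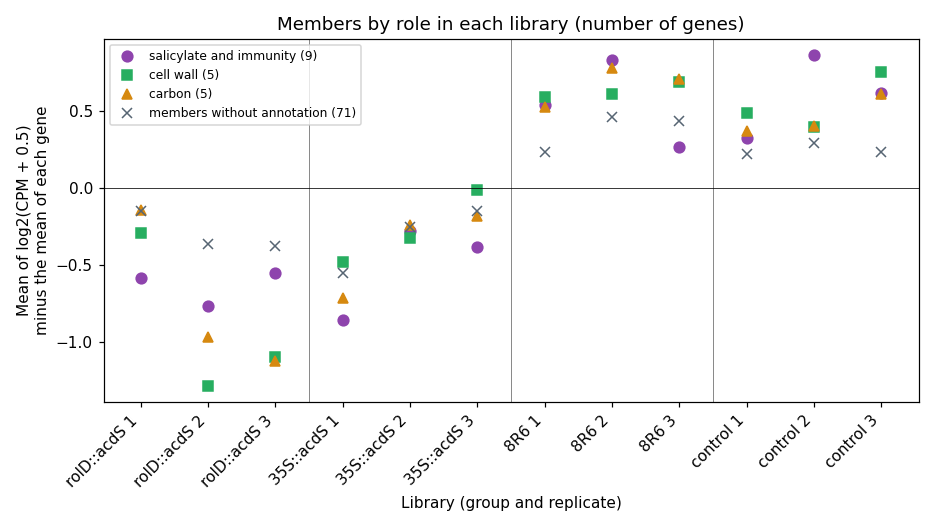
Mean over the genes of a group of log2(CPM + 0.5) minus the mean of each gene (vertical axis) in the 12 libraries (horizontal axis), for 9 immunity, 5 cell wall, 5 sugar and organic acid (carbon) genes and the 71 members without annotation. Cell wall and carbon genes are lowest in *rolD::acdS* replicates 2 and 3, and immunity genes in *35S::acdS* replicate 1.

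Homeologues of the same *A. thaliana* gene had lower means in the *acdS* lines where annotated, but few met the rule together. Among the 23 members with a listed *A. thaliana* homologue, 3 homologues were represented by more than 1 member (7 members in all: isochorismate synthase, AT2G41180 and STP1). A further 6 homeologues of members were annotated and were not members. All 6 had a lower mean in the *acdS* libraries, and in 0 of them were the *acdS* and DH55 libraries separate. Annotation comes from the study's lists of genes changed in these same libraries, so the direction of these homeologues is not independent. With at least 2 CPM in both DH55 groups, 533 of 736 annotated genes had a lower mean, against 20397 of all 42999 genes. The most abundant of the 6 homeologues was Csa11g013140, another XTH24 gene. Its lowest, median and highest levels were 39.4, 87.4 and 159.7 CPM in the *acdS* libraries, against 102.5, 143.8 and 196.4 CPM in DH55. Csa09g069130, the second SIB1 gene, had 0.977, 2.58 and 4.09 CPM in the *acdS* libraries, against 3.81, 5.46 and 9.55 CPM in DH55. How reads that match more than 1 homeologue were assigned is not given in the sources used here, so the homeologues may share reads. There were also 6 pairs of members (12 genes) with identifiers at most 10 steps apart, among them WRKY70 with Csa04g042910, the acyltransferase with the P450 gene, and the arabinogalactan protein gene with Csa19g046270. The share of such pairs over all genes was not computed. Of the numbered parts of the genome that the identifiers name, number 09 held 10 members, or 10.0% of them against 5.73% of the genes with at least 2 CPM, and number 11 held 2, or 2.0% against 7.97%. Numbers 14, 16 and 17 held 9 each (9.0%, against 5.42%, 5.13% and 5.81%) and number 06 held 8 (8.0% against 4.77%), so number 09 did not stand apart.

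Against each DH55 group on its own, the medians over the 100 genes were close. On the log2(CPM + 0.5) scale the median ratio of *rolD::acdS* was -0.72 to 8R6 and -0.59 to the control, and that of *35S::acdS* was -0.67 to 8R6 and -0.57 to the control. These comparisons share libraries and were used by the rule. The mean was lower in *rolD::acdS* than in *35S::acdS* for 54 genes and higher for 46, and it was higher in 8R6 than in the control for 61 and lower for 39.

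The *acdS* lines, which differ in the promoter, were tested against each other. The rule ranked genes by the larger of their group means, so it favours genes that are low in both. An effect of the promoter and an effect of the line that carries it cannot be told apart here. With edgeR's quasi-likelihood test, which was fitted on 56932 genes, 0 of the 100 members differed more than 2-fold between *rolD::acdS* and *35S::acdS* with an adjusted p up to 0.05, against 0 of all genes (0.0%). At an unadjusted p under 0.05 there were 6 members, against 7305 of all genes (12.8%), and DESeq2 called 115 genes and 0 members. The edgeR exact test with a fixed biological coefficient of variation (BCV) of 0.2 called 1368 genes and 1 member, Csa16g037660. The smallest adjusted p among the members was 0.326. The log2 fold change of *rolD::acdS* over *35S::acdS* had a median of -0.01 over the members and 0.01 over all genes, and a median size of 0.105 against 0.207. The rule favours genes alike in both lines, and all genes tested include scarcer ones than the rule allows. The smaller size and the lower share at an unadjusted p under 0.05 are therefore not results about the lines. The median over the members was -0.09 without *35S::acdS* replicate 1, -0.07 without *rolD::acdS* replicate 1 and 0.05 without *rolD::acdS* replicate 2, with 31 to 62 members positive when single libraries were left out, so it had no stable sign.

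The 6 members with an unadjusted p under 0.05 in this comparison were cell wall, sugar and immunity genes, all with lower values in *rolD::acdS*. The SAR DEFICIENT 1-like gene Csa16g037660 had a log2 fold change of -1.94 (SE 0.85, adjusted p = 0.375), a value that rests on few counts and was -3.81 without *rolD::acdS* replicate 1 and -1.20 without *35S::acdS* replicate 2. STP1 Csa17g015290 had -0.60 (SE 0.19, adjusted p = 0.326) and STP1 Csa03g014900 had -0.44 (SE 0.15, adjusted p = 0.327). XTH24 (Csa10g012230) had -0.76 (SE 0.33, adjusted p = 0.375), and it was at -1.24 without *rolD::acdS* replicate 1 and at -0.38 without *35S::acdS* replicate 3. The FRA8 homologue Csa20g037860 had -0.59 (SE 0.25, adjusted p = 0.372) and the arabinogalactan protein gene Csa19g046190 had -0.59 (SE 0.22, adjusted p = 0.337). None of the 6 passed the threshold by the edgeR test. Values of similar size but opposite sign were those of Csa16g014910, without annotation, at 0.65 (SE 0.47, adjusted p = 0.556), and of the sulphate transporter gene Csa09g084780, at 0.62 (SE 0.35, adjusted p = 0.461). For 4 members (Csa06g011400, Csa19g046190, Csa17g015290 and Csa03g014900) all 3 *rolD::acdS* libraries lay below all 3 of *35S::acdS*, as they did for 10.3% of all genes tested, and for 0 members they lay above, against 9.42%.

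The bacterium itself was compared with the control in DH55. The rule ranked genes by the smaller of these group means, so it favours genes high in both groups and alike in them. Of the 100 members 0 differed between 8R6 and the control by edgeR's quasi-likelihood test, against 1 of all genes (0.00176%). There were 5 members at an unadjusted p under 0.05, against 5496 of all genes (9.65%), and DESeq2 called 208 genes and 0 members. With the BCV fixed at 0.2 the edgeR exact test called 893 genes and 1 member, FUMARASE 2. Leaving out single libraries gave 0 to 80 genes, with 80 in the absence of control replicate 2, 19 without *35S::acdS* replicate 3 and 5 without control replicate 3, and 0 members each time. The log2 fold change of 8R6 over the control had a median of 0.07 over the members and 0.00 over all genes, with 60 of 100 members positive (58 to 69 when single libraries were left out) against 50.2% of all genes. Because the rule used these values, the counts and shares of members are not results about the bacterium.

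FUMARASE 2 (Csa02g041670) had the largest value, a log2 fold change of 8R6 over the control of 1.59 (SE 0.44, adjusted p = 0.264), and all 3 of its 8R6 libraries were above the 3 of the control. By size the acyltransferase gene Csa06g011400 and WRKY70 (Csa04g042830) followed, at -0.83 (SE 0.51, adjusted p = 0.64) and 0.78 (SE 0.36, adjusted p = 0.518). Another 4 members had an unadjusted p under 0.05. Their log2 fold changes in the edgeR test were 0.52 (SE 0.21, adjusted p = 0.446) for Csa16g029100, 0.41 (SE 0.17, adjusted p = 0.469) for Csa02g072000, 0.41 (SE 0.16, adjusted p = 0.44) for Csa14g018410 and -0.41 (SE 0.19, adjusted p = 0.518) for the isochorismate synthase gene Csa09g079290. In all, 8 members had every 8R6 library above every control library, against 7.16% of all genes tested, and 1 member (STP1 Csa03g014900) had every 8R6 library below, against 7.24%. The 8 included the GH3 gene Csa08g005200.

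The wider pathways were described with gene lists taken from the MapMan categories of the study's lists of changed genes. These genes were chosen on the same libraries, and the list for *rolD::acdS* was read in part, so their direction is not independent evidence. Of 736 annotated genes with at least 2 CPM in both DH55 groups, 31 (4.21%) had all *acdS* libraries below all DH55 libraries, against 0.426% of all genes, and their median log2 ratio of *acdS* to DH55 was -0.49, against 0.01 over all genes. The transport list held 4 members (STP1 and the sulphate transporter) among 43 genes, with a median of -0.56, and the cell wall list 5 among 60, with -0.49. Biotic stress genes held 1 member (the RPP1-like receptor) among 20, with -0.84, and WRKY genes 1 (WRKY70) among 13, with -0.62. No members were found among 46 protein degradation genes (-0.62), 21 receptor kinase genes (-0.53), 16 calcium signalling genes (-0.77), 22 secondary metabolism genes (-0.86) and 14 cytochrome P450 genes (-0.50), since the P450 gene among the members has no category. The 12 ethylene genes had a median of -0.53 and held 0 members, as did 2 NAC genes (-0.35), 11 abscisic acid genes (0.12) and 6 late embryogenesis abundant genes (0.00), while 63 transcription regulators (-0.37) held 2. In each single category 0 genes passed the edgeR test in either comparison, while 1 gene of the whole annotated set was called between 8R6 and the control.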

How the data were processed

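RNA from whole shoots of salt-treated *C. sativa* was sequenced in 12 libraries, 3 for each of 4 groups, which were taken from the sample descriptions. After trimming (Trimmomatic) and mapping (STAR), the authors deposited read counts per gene. The table is named for CPM but holds whole numbers with different totals (10520627 to 23587748), so it was analysed as counts. Its data columns were the 12 libraries. From the study's lists of changed genes only names and categories were taken, not the values. CPM were counts divided by the library total.

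The 100 genes, the gene lists and the tests were chosen with earlier results of these data known. Counts were scaled by TMM and all groups were fitted together with edgeR 4.0.16 (R 4.3.3) for the genes that reached 0.5 CPM in 3 or more libraries (56932 genes, all 100 members among them), which held 99.8% or more of the counts of each library. The quasi-likelihood test was applied to *rolD::acdS* against *35S::acdS* and to 8R6 against the control, and p-values were adjusted by Benjamini-Hochberg over the whole table. Calls needed an adjusted p up to 0.05 together with a change of more than 1 on the log2 scale. The standard error is that of the log2 fold change. The p-values rest on the spread between replicates within groups, estimated over all groups together. The study calls the 3 replicates of each group biological. The test was checked on simulated counts. Same-numbered replicates correlated at r = 0.07, -0.06 and -0.02 in the first comparison and 0.28, 0.26 and -0.33 in the second (deviations from group means across genes). Replicates with different numbers correlated at -0.07 to 0.09 in the first comparison and -0.54 to 0.47 in the second. Same-numbered replicates were therefore not treated as pairs.

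Named genes were the first 30 by rank, members that the study's lists annotate, homeologues and neighbours among them, members called in either comparison (0), the 3 genes on each side of rank 100 and members with 3 counts or fewer in all *acdS* libraries (0). Names and *A. thaliana* homologues come from the study's lists of changed genes. Since 0 of the identifiers are in the reference gene table, coordinates and sequences were not used here. The level of the *acdS* transgene itself was not analysed here, so the labels of the transgenic libraries were not checked by it. Alternatives were DESeq2 1.42.0, DESeq2 size factors, no filter, a replicate block, the 6 libraries of a comparison alone, edgeR exact tests, other settings of the membership rule, and leaving out each library.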

Additional observations from a re-analysis of the deposited data

How the results depend on the processing

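Membership depended on single libraries. Of the 100 genes, 39 to 86 stayed in the first 100 when 1 library was left out: 39 without 8R6 replicate 3, 44 without *rolD::acdS* replicate 1, 52 without *35S::acdS* replicate 3, 58 without control replicate 1 and 62 without *rolD::acdS* replicate 3. With TMM factors 79 stayed, with 0.1 or 2 CPM added 97 or 96, and with a minimum of 1 or 5 CPM 88 or 70. Under all 17 settings 21 genes stayed, among them FUMARASE 2, WRKY70, XTH24, SIB1 and both isochorismate synthase genes. Between *rolD::acdS* and *35S::acdS*, where 0 genes were called, DESeq2 called 115, the edgeR exact test 1368 with the BCV fixed at 0.2 and 115 with dispersions estimated for each gene (a setting chosen after seeing the data), and leaving out single libraries 0 to 1. Between 8R6 and the control, where 1 gene was called, the counts were 20 without the filter on low counts, 0 with only the 6 libraries of the comparison, 208 with DESeq2, 893 and 259 with the same exact tests, and 0 to 80 when single libraries were left out. With a replicate block these counts were 0 and 15, and the block called 0 members in both comparisons. With the BCV fixed at 0.2, 1 member was called in each comparison (Csa16g037660, log2 fold change -1.94, and FUMARASE 2, 1.59), and under every other setting 0 members were called. Among members with an unadjusted p under 0.05 in the quasi-likelihood test, no log2 fold change changed sign where it was refitted. The median over the members between *rolD::acdS* and *35S::acdS* did, from -0.01 to 0.05 without *rolD::acdS* replicate 2. The causes of these differences were not tested. Depth limits the scarcest members: 5 of the 100 had an *acdS* library with 3 counts or fewer.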
